A study of Mus musculus with 68 samples.

Results

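The 9 genes followed here make the coat of the mouse egg and the factors an oocyte secretes or uses to switch on its own genes. Zp1, Zp2 and Zp3 encode the zona pellucida glycoproteins, Gdf9, Bmp15 and Oosp1 encode secreted proteins, Figla and Nobox encode oocyte transcription factors, and Zar1 encodes a protein that binds stored RNA. They were chosen by name and not by a cut on their values, though with earlier results of these data known. They are 9 of the 24941 gene names found over the 8 deposited expression tables. Zp1, Zp2, Zp3, Gdf9, Bmp15, Oosp1 and Zar1 had a row in all 8 tables, whereas Figla and Nobox each had a row in 5 tables.

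The study deleted Ezhip, an X-linked gene whose product inhibits the histone methyltransferase complex PRC2, and compared RNA of oocytes and embryos by genotype. Poly(A) RNA was read by Smart-seq2, a sensitive full-length protocol, from lysates of whole oocytes or embryos. The oocytes, labelled FGO, comprised 3 Ezhip KO, 2 Ezhip Het and 2 wild-type (WT) libraries. Embryos were labelled Ezhip mKO, Ezhip mHet or wild type, with 2 libraries of each at the 1-cell stage (PN5), at the late 2-cell stage (L2C), in the first of the 2 tables of E3.5 embryos, in E6.5 epiblast and in E6.5 extraembryonic ectoderm. The 8-cell stage (8C) had 3 mKO, 1 mHet and 2 WT libraries, the second E3.5 table had 5 of each genotype, and E4.25 had 4 mKO and 4 WT libraries with 2 mHet libraries whose values were identical and which were counted as 1 sample. Of 68 libraries 67 were therefore used. The labels used here do not state the strain, the age of the females, the number of oocytes or embryos per library, or the cross or driver behind each allele. Nothing says that the libraries came from separate females, so each p-value speaks only of the spread among these particular libraries, part or all of which may be technical.

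During growth the oocyte assembles the zona from ZP glycoproteins and secretes GDF9 and BMP15, which act on the granulosa cells around it through TGF-beta family receptors. FIGLA is known as an activator of the Zp genes in the growing oocyte, and NOBOX as an activator of Gdf9 and other oocyte genes. The fully grown oocyte stops transcription and stores its messages; after meiotic maturation and fertilisation these stored RNAs lose their poly(A) tails and are destroyed in waves, before and during activation of the embryo's own genome. ZAR1 is known to keep stored RNAs in the oocyte.

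The label check held in the stages where Ezhip was expressed. Ezhip, listed under its earlier symbol AU022751, had 0, 0.175 and 0.117 FPKM (reads scaled by gene length and by library total) in KO oocytes, against 143 and 84.1 FPKM in Het oocytes and 546 and 297 FPKM in WT oocytes. It had 0.933 and 0.124 FPKM in mKO 1-cell embryos, 157 and 244 FPKM in mHet and 251 and 368 FPKM in WT. It stayed under 1 FPKM in mKO late 2-cell embryos, against 5.92 to 9.80 FPKM in mHet and 15.7 to 15.9 FPKM in WT, and was too low to check labels from the 8-cell stage on. The summed level of 6 oocyte markers fixed apart from the 9 genes (Padi6, Nlrp5, Npm2, H1foo, Mos and Bcl2l10) was 6741 to 12556 FPKM over the oocyte libraries. In the oocytes between 7316 and 9801 genes reached 1 FPKM. Depth is unknown because the tables hold FPKM only.

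The messages of the zona genes have very short 3′ ends. In the GENCODE annotation of GRCm38 the 3′ untranslated region (UTR) is 34 bases long for Zp1, 49 for Zp2 and 13 for Zp3, against a median of 741 bases over 21648 genes. Only 7.22% of genes have a 3′ UTR under 50 bases, and 5.0% have under 14. These shares and the median do not leave out genes without an annotated 3′ UTR. The secreted factors have longer ones, 230 bases in Oosp1, 360 in Gdf9 and 1523 in Bmp15, and Figla, Zar1 and Nobox have 120, 146 and 281 bases. A window of 30 transcript bases around the poly(A) signal nearest the annotated transcript end is shown for the 6 zona and secreted-factor genes to let these ends be compared; 12 bases follow that signal in Zp3, 17 in Gdf9, 20 in Zp1, 22 in Bmp15, 32 in Zp2 and 87 in Oosp1. Capitals mark the poly(A) signal (AATAAA or ATTAAA) and, in Gdf9, a cytoplasmic polyadenylation element (TTTTAT).
Zp1, GRCm38 chr19:10914300-10914329, minus strand: atATTAAAtggactcAATAAAccattgttt
Zp2, GRCm38 chr7:120132363-120132392, minus strand: ctgattggacttgcaAATAAAgagactgca
Zp3, GRCm38 chr5:135988592-135988621, plus strand: ttgtatcccttccgcAATAAAagaagaaac
Gdf9, GRCm38 chr11:53437866-53437895, plus strand: TTTTATgtgacggaagAATAAActgttgat
Bmp15, GRCm38 chrX:6314120-6314149, minus strand: ttcttaatcttaaagAATAAAttttcattt
Oosp1, GRCm38 chr19:11667538-11667567, minus strand: aaaatctgATTAAAgAATAAAaatttccca

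Within the last 100 transcript bases, read on the transcript strand only, all 9 genes held a poly(A) signal, as did 72.9% of the 21648 genes. In Zp3 the signal overlaps the stop codon, and in Zp1 the first of its pair of signals does; such an overlap was found in 0.462% of genes. The cytoplasmic element, searched as TTTTAT or TTTTAAT, was found in that window in Gdf9 alone among the 9 genes, against 16.3% of all genes. A match of letters is a description of the sequence and not a test of use.

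FIGLA binds E boxes, 6-base sites spelled CANNTG, a pattern that matches both strands at the same place. The RefSeq promoter table (GRCm38.p6) holds 6 of the 9 genes, Zp3, Bmp15, Oosp1, Figla, Nobox and Zar1. The 250 bases before the start of Zp3 are shown because Zp3 is the zona gene in that table; capitals mark its 3 E boxes, which begin 181, 134 and 55 bases before the start.
Zp3 promoter, GRCm38.p6 chr5:135979855-135980104, plus strand: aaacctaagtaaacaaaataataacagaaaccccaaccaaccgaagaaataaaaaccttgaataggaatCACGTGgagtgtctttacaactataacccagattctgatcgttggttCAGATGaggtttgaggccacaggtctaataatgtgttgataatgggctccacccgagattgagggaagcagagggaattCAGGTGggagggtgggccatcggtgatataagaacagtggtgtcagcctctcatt
All 6 promoters held at least 1 E box in these 250 bases, with 5 in Oosp1, 3 in Zp3, 2 each in Figla, Nobox and Zar1, and 1 in Bmp15. Over 32851 promoters of the same length 66.2% held at least 1, 31.8% at least 2, 12.2% at least 3 and 1.15% at least 5.

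In oocytes the secreted and coat genes were among the highest of all messages. In WT oocytes Oosp1 averaged 2759 ± 2261 FPKM, Gdf9 2466 ± 1306 FPKM, Zp3 2005 ± 559 FPKM, Zp2 1300 ± 379 FPKM and Bmp15 1200 ± 471 FPKM (SD, n = 2). Zar1 averaged 537 ± 246 FPKM, Zp1 402 ± 21.2 FPKM, Nobox 170 ± 62.7 FPKM and Figla 32.7 ± 16.0 FPKM. FPKM is a level per length, so genes can be ranked, but in that order Oosp1 and Gdf9, Gdf9 and Zp3, Zp2 and Bmp15, and Zar1 and Zp1 were neighbours with overlapping ranges. Over the 7 oocyte libraries of any genotype Oosp1 ranked between 5th and 21st of all genes, Gdf9 between 8th and 26th, and Zp3 between 9th and 21st. The 9 genes together made 1.85% to 4.63% of each library's summed FPKM, with a median of 4.29%.

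**Figure D1:**
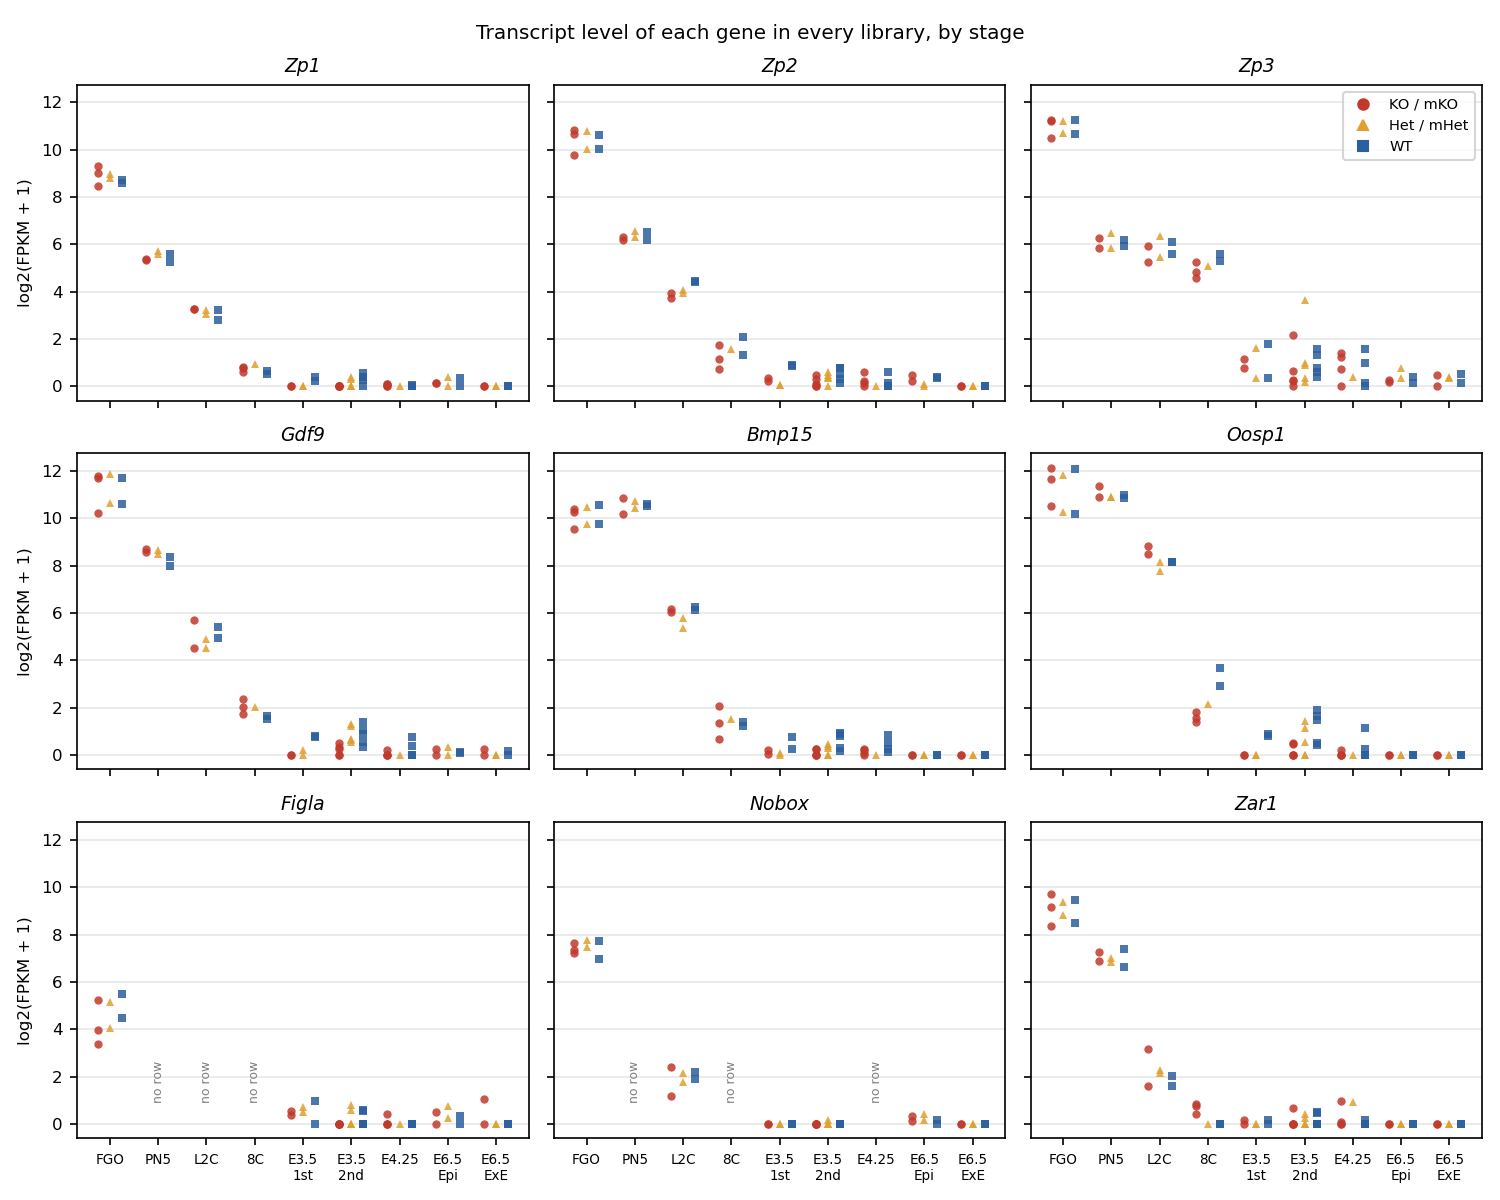
Each panel plots 1 gene in every library, as log2(FPKM + 1) against stage, with red circles for KO or mKO, yellow triangles for Het or mHet and blue squares for WT. The zona genes are highest in oocytes, the PN5 values of Bmp15 and Oosp1 overlap those of oocytes, and Zp3 alone stays above 20 FPKM in every 8-cell library.

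Zp3 and Zp2 were the 2 more abundant zona messages. Zp3 had 2467, 2362 and 1430 FPKM in KO oocytes, 2350 and 1650 FPKM in Het oocytes, and 2400 and 1609 FPKM in WT oocytes. Zp2 had 1792, 1629 and 869 FPKM in KO, 1739 and 1050 FPKM in Het, and 1568 and 1031 FPKM in WT. In every genotype 1 library lay well below the rest, and the genotypes overlapped fully. Zp1, whose product cross-links zona filaments, had 519, 639 and 351 FPKM in KO oocytes, against 504 and 440 FPKM in Het and 417 and 388 FPKM in WT. The KO libraries lay on both sides of the WT pair. The ratio of Zp3 to Zp2 varied little, between 1.35 and 1.65 over the 7 libraries, and that of Zp2 to Zp1 lay between 2.38 and 3.76.

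GDF9 and BMP15 form homodimers and a heterodimer that act on granulosa cells. Gdf9 had 3349, 3554 and 1202 FPKM in KO oocytes, 3791 and 1595 FPKM in Het, and 3389 and 1543 FPKM in WT. Bmp15, on the X chromosome, had 1339, 1225 and 753 FPKM in KO, 1428 and 868 FPKM in Het, and 1533 and 867 FPKM in WT. Both genes were split into high and low libraries within every genotype. Gdf9 exceeded Bmp15 in each oocyte library, by 1.60 to 2.90 times. Oosp1, an oocyte-secreted protein, spread the most, with 4519, 3291 and 1457 FPKM in KO oocytes, 3628 and 1247 FPKM in Het, and 4359 and 1160 FPKM in WT.

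The regulators were lower than the secreted genes. Figla had 9.45, 14.9 and 36.4 FPKM in KO oocytes, 15.7 and 34.5 FPKM in Het, and 21.4 and 44.0 FPKM in WT. Its high library in each genotype was the one in which Gdf9 and Oosp1 were low. Nobox had 147, 201 and 162 FPKM in KO, 178 and 215 FPKM in Het, and 125 and 214 FPKM in WT, with all genotypes overlapping. Zar1 had 572, 846 and 331 FPKM in KO, 665 and 452 FPKM in Het, and 711 and 363 FPKM in WT, which again overlapped.

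None of the 9 genes passed the test between KO and WT oocytes. limma on log2(FPKM + 1), over 9818 genes with at least 1 FPKM in at least 2 oocyte libraries and with Benjamini-Hochberg adjustment, called 0 of the 9 at an adjusted p under 0.05 and 0 at an unadjusted p under 0.05. Over all genes those shares were 0.0102% and 0.112%, so few genes of any kind passed. This fit has no term for the sets of library numbers described below. Their difference is part of its spread, so a genotype difference can be missed. With the set as a term the fit also called 0 of the 9. The log2 changes ran between −0.79 for Figla (SE 0.64) and 0.31 for Oosp1 (SE 0.36), with a median of 0.09 for the 9 genes and −0.05 for all genes. Without WT replicate 1 the log2 change of Oosp1 was 1.26, and without WT replicate 2 it was −0.64. Each of these fits leaves a lone WT library, assumed to vary like the other groups. WT replicate 1 had 4359 FPKM of Oosp1 and WT replicate 2 had 1160 FPKM. These WT libraries lie in different sets of library numbers, which these fits do not contain. Het against WT also called 0 of the 9 (background 0%; 0 at unadjusted p under 0.05, against 0.0713%; Zp1 did not overlap and was higher, against 2.13% of all genes), and so did KO against Het (background 0.0102%; 0 unadjusted, against 0.0917%).

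The split that did separate the oocyte libraries was not genotype. The labels number the libraries 1 to 7, and numbers 5 to 7 (WT replicate 2, Het replicate 2 and KO replicate 3) repeat the genotypes of numbers 1 to 4; nothing says whether the 2 sets were made separately. The split was taken up with earlier results of these data known, so its tests describe these libraries. With genotype in the model, Gdf9 averaged 1447 ± 213 FPKM in libraries 5 to 7 and 3521 ± 201 FPKM in libraries 1 to 4 (SD, n = 3 and 4; log2 difference −1.32, SE 0.10, limma adjusted p = 1.21e-08). Oosp1 averaged 1288 ± 152 FPKM in libraries 5 to 7 and 3949 ± 585 FPKM in libraries 1 to 4 (log2 difference −1.60, SE 0.11, limma adjusted p = 1.21e-08). For both genes every library of the second set lay below every library of the first.

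In all, 7 of the 9 genes were lower in libraries 5 to 7 (Zp1, Zp2, Zp3, Gdf9, Bmp15, Oosp1 and Zar1), where 2.13% of all genes were lower. The zona genes differed less than Gdf9, with log2 differences of −0.38 in Zp1, −0.63 in Zp3 and −0.79 in Zp2. Zp1 overlapped between the sets and did not pass without the filter on low values (−0.38, limma adjusted p = 0.127) or without KO replicate 3 (−0.15, limma adjusted p = 0.349). Figla was higher, at 38.3 ± 5.04 FPKM in libraries 5 to 7 and 15.4 ± 4.91 FPKM in libraries 1 to 4 (log2 difference 1.24, SE 0.20), as were 78.9% of all genes. Nobox did not pass (log2 difference 0.28, SE 0.15, limma adjusted p = 0.0903). The median over all genes was 0.88 and over the 9 genes −0.77. When libraries were scaled by median ratios, the Figla difference no longer passed (0.25, adjusted p = 0.325) and Nobox was lower in libraries 5 to 7 (−0.75, adjusted p = 0.0115). Nobox was higher in libraries 5 to 7 without KO replicate 2 (0.39, limma adjusted p = 0.00863) or KO replicate 3 (0.52, limma adjusted p = 0.00727).

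Other measures moved with the same split. The 9 genes made 1.85% to 2.19% of the summed FPKM in libraries 5 to 7 and 4.29% to 4.63% in libraries 1 to 4. Between 9432 and 9801 genes reached 1 FPKM in libraries 5 to 7, against 7316 to 8443 in libraries 1 to 4. The sum of 12 follicle somatic cell markers was 29.8 to 50.6 FPKM in libraries 5 to 7 and 6.96 to 11.5 FPKM in libraries 1 to 4, with Amh at 0 in all 7 libraries. Their part in the differences was not tested. Each genotype has libraries in both sets, so within libraries 1 to 4 Oosp1 had 4519 and 3291 FPKM in KO against 4359 FPKM in WT, and within libraries 5 to 7 it had 1457 FPKM in KO against 1160 FPKM in WT.

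**Figure D2:**
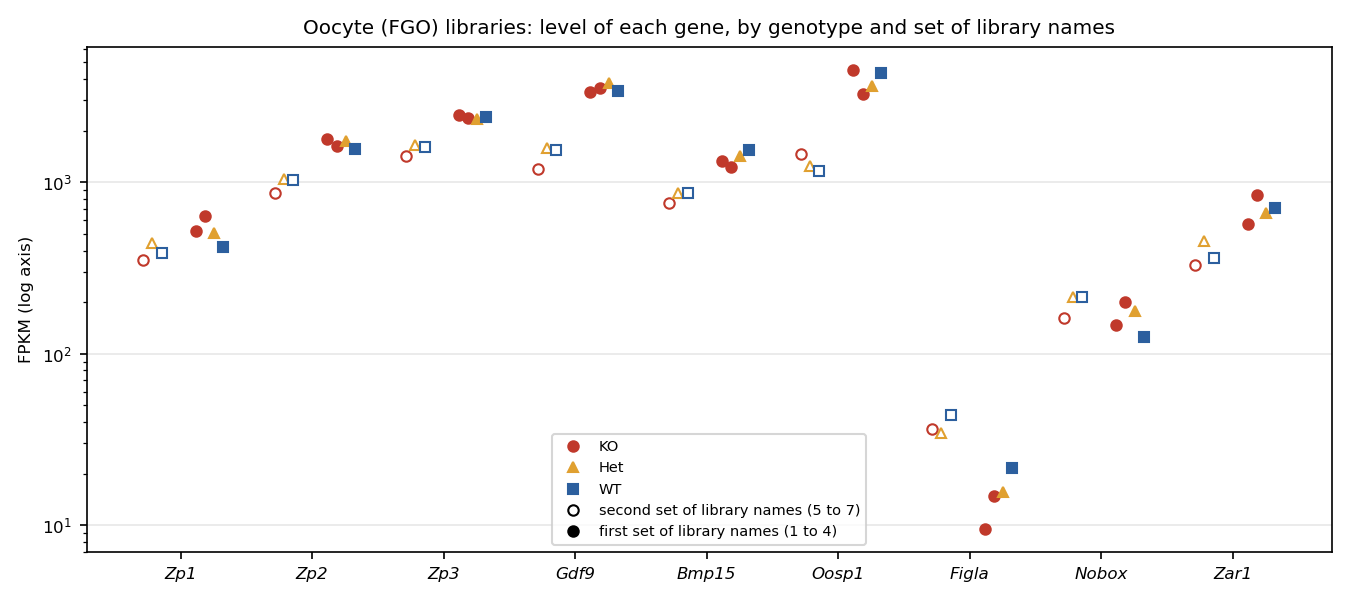
FPKM on a log axis is plotted for each gene in the 7 oocyte libraries, with open symbols (left) for libraries 5 to 7, filled symbols (right) for libraries 1 to 4, and shape and colour for genotype. Gdf9 and Oosp1 split by set and not by genotype, and Figla splits the other way.

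Between oocyte and 1-cell embryo the coat messages were largely lost from the poly(A) read-out while the values of Bmp15 and Oosp1 overlapped those of oocytes. The tables were normalized separately and FPKM is relative to all RNA read, so these changes between stages are described without a test. A message in fewer oocytes or embryos and less of it in each cannot be told apart. Nor can loss of RNA and shortening of poly(A) tails. In the KO line, that is from KO oocytes to mKO PN5 embryos, Zp3 was 31.6-fold lower (66.0 ± 14.7 FPKM at PN5), Zp2 19.1-fold lower and Zp1 12.7-fold lower. Gdf9 was 6.71-fold lower and Zar1 4.27-fold lower, while Oosp1 was 1.36-fold lower (2271 ± 527 FPKM) and Bmp15 slightly higher (1502 ± 477 FPKM, log2 change 0.44). Leaving out each library in turn, Oosp1 was 1.05-fold to 1.72-fold lower.

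WT had the same order. Zp3 was 30.9-fold lower in WT PN5 embryos (65.0 ± 7.84 FPKM) than in WT oocytes, Zp2 16.0-fold lower and Zp1 9.53-fold lower. Gdf9 was 8.41-fold lower and Zar1 4.02-fold lower, while Oosp1 was 1.42-fold lower (1940 ± 113 FPKM) and Bmp15 slightly higher (1535 ± 62.6 FPKM, log2 change 0.35). For Oosp1 the WT direction rests on 1 oocyte library: it was 1.67-fold higher at PN5 without WT oocyte replicate 1 and 2.25-fold lower without WT oocyte replicate 2. Without WT oocyte replicate 1 Gdf9 was 5.26-fold lower. Among 3453 genes with at least 10 FPKM in WT oocytes and a row in each table, the WT decline was larger than that of Zp3 in 0.435%, of Zp2 in 1.13%, of Zp1 in 2.76% and of Gdf9 in 3.25%.

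The median log2 change of the 7 genes with rows in all tables was −2.74 in the KO line and −3.07 in WT, beside medians over the 3453 genes of 0.10 in the KO line and 0.12 in WT. In the KO line 5 of the 7 genes were lower at PN5 by more than 2 on the log2 scale, beside 10.5% of genes, and in WT 4 of the 7, beside 9.90% of genes. Without WT oocyte replicate 1, the library with the higher Gdf9 and Oosp1 of the WT pair, the WT median was −2.39.

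The balance between partners turned round in this step. Gdf9 to Bmp15 was 1.60 to 2.90 in oocyte libraries and 0.170 to 0.329 in PN5 libraries, with no overlap over any genotype. Zp3 to Bmp15 was 1.57 to 1.93 in oocytes and 0.0399 to 0.0524 in PN5. In PN5 embryos the WT order was Oosp1, Bmp15, Gdf9 (293 ± 55.3 FPKM), Zar1 (134 FPKM), Zp2 (81.1 ± 12.6 FPKM), Zp3 and Zp1 (42.2 FPKM), and no 2 neighbours in it overlapped.

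Bmp15 and Oosp1 declined one step later. In mKO embryos Bmp15 was 22.3-fold lower at L2C than at PN5 (67.3 ± 3.99 FPKM at L2C), Zar1 27.1-fold lower, Gdf9 10.9-fold lower and Oosp1 5.59-fold lower (406 ± 69.9 FPKM). In WT embryos Bmp15 was 21.3-fold lower (72.2 ± 4.71 FPKM at L2C), Zar1 52.1-fold lower, Gdf9 8.24-fold lower and Oosp1 6.88-fold lower (282 ± 1.21 FPKM). In mKO, Zar1 was 16.9-fold lower without L2C replicate 1 and 68.0-fold lower without L2C replicate 2, and Gdf9 18.0-fold lower without L2C replicate 2. The median log2 change of the 7 genes was −2.48 in mKO and −2.78 in WT, beside −0.87 in mKO and −0.84 in WT over the 3453 genes. In WT, Bmp15 was the only one of the 7 that was not lower by 1 or more on the log2 scale at PN5 and was then lower by more than 3 at L2C, a course shared by 376 of the 3453 genes (10.9%). Zp1, Zp2, Zp3 and Gdf9 were lower by more than 3 at PN5, with 122 of the 3453 genes (3.53%).

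Zp3 differed from the other zona genes after its early decline. At L2C it was 1.36-fold lower than at PN5 in mKO and 1.14-fold lower in WT (1.03-fold higher without WT L2C replicate 1), and at 8C it was 1.66-fold lower than at L2C in mKO and 1.33-fold lower in WT. Zp1 and Zp2 kept declining, in mKO by 4.58-fold and 5.67-fold to L2C and by 12.8-fold and 9.41-fold to 8C, and in WT by 5.98-fold and 3.97-fold to L2C and by 14.4-fold and 8.65-fold to 8C. The Zp2 step to 8C was 14.1-fold without mKO 8C replicate 2 and 14.0-fold without WT 8C replicate 1. The ratio of Zp3 to Zp2 was 1.35 to 1.65 in oocytes, 0.599 to 1.15 at PN5, 2.35 to 5.15 at L2C and 11.5 to 36.0 at 8C, over all genotypes. Zp3 was thus the most abundant in 8-cell embryos of the 7 genes with a row there, which leaves out Figla and Nobox, at 29.2 ± 7.51 FPKM in mKO (n = 3), 32.9 FPKM in the mHet library and 42.8 ± 6.04 FPKM in WT (n = 2). Whether reads from another gene add to the Zp3 value was not tested, and the annotation behind the FPKM is not stated.

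**Figure D3:**
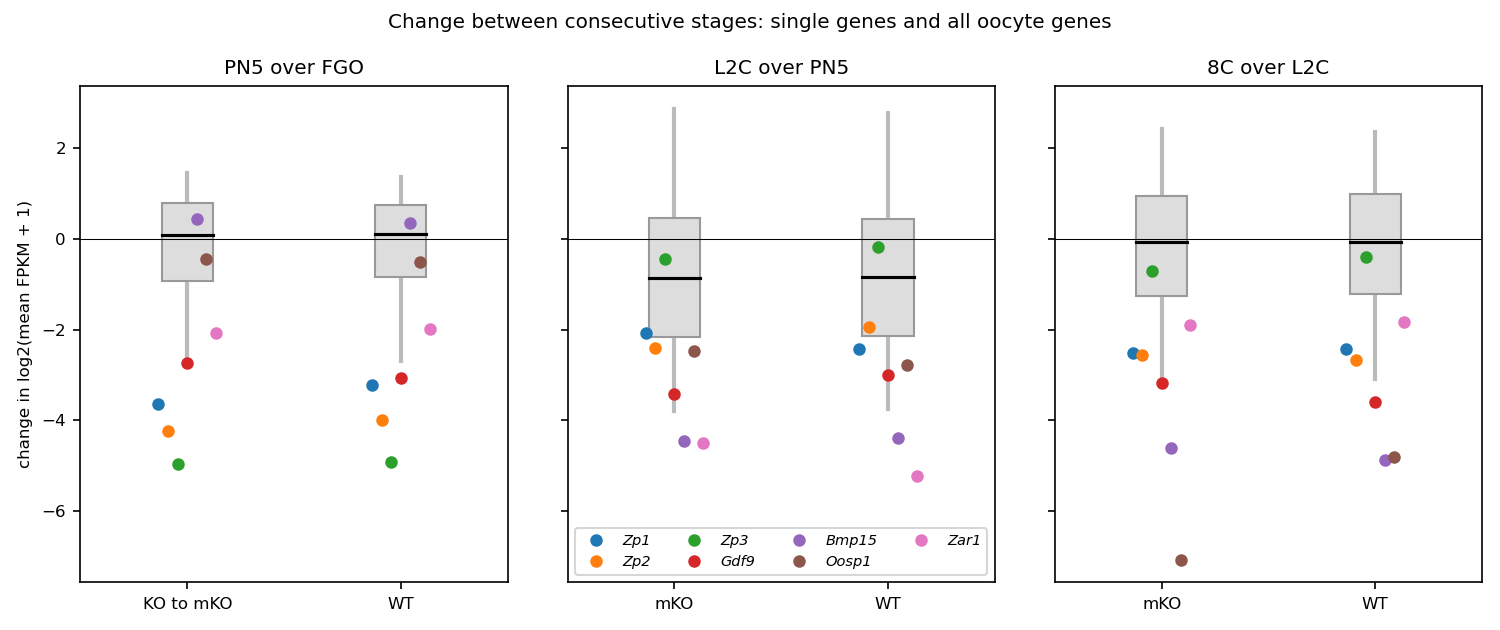
Points give the change in log2(mean FPKM + 1) of 7 genes over 3 consecutive steps, in the KO line (left in each panel) and in WT (right); grey boxes span the middle 50% and lines the 5th to 95th percentile of 3453 oocyte genes, with the median in black. Zp3 is lowest in the first step and within the box in the next 2, whereas Bmp15 lies within the box first and far below it later.

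The early decline was larger in genes with short 3′ UTRs. Of 3241 genes with an annotated 3′ UTR and at least 10 FPKM in WT oocytes, the 87 with 1 to 49 bases had a median log2 change of −2.43 to PN5, the 1270 with 50 or more but under 500 bases −0.43, and the 1884 with 500 bases or more 0.39. Zp1, Zp2 and Zp3 were in the short class, in which 51.7% of genes were lower by more than 2, and Bmp15 was in the long class, in which 3.93% were. Gdf9 and Zar1, in the middle class, had changes of −3.07 and −2.0, below that class's median. The short class holds 27 ribosomal protein genes; without them the median of the other 60 was −0.87, and 33.3% were lower by more than 2. The 671 genes with a cytoplasmic polyadenylation element in the last 100 bases had a median of 0.42, whereas Gdf9, which has one, was at −3.07. Between PN5 and L2C the order of the classes reversed, with medians of 1.25 in the short, −0.66 in the middle and −0.997 in the long class, in which Bmp15 was at −4.39. Without the ribosomal protein genes the median of the short class was 0.026 in this step. Genes are not independent replicates, so no test was made.

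**Figure D4:**
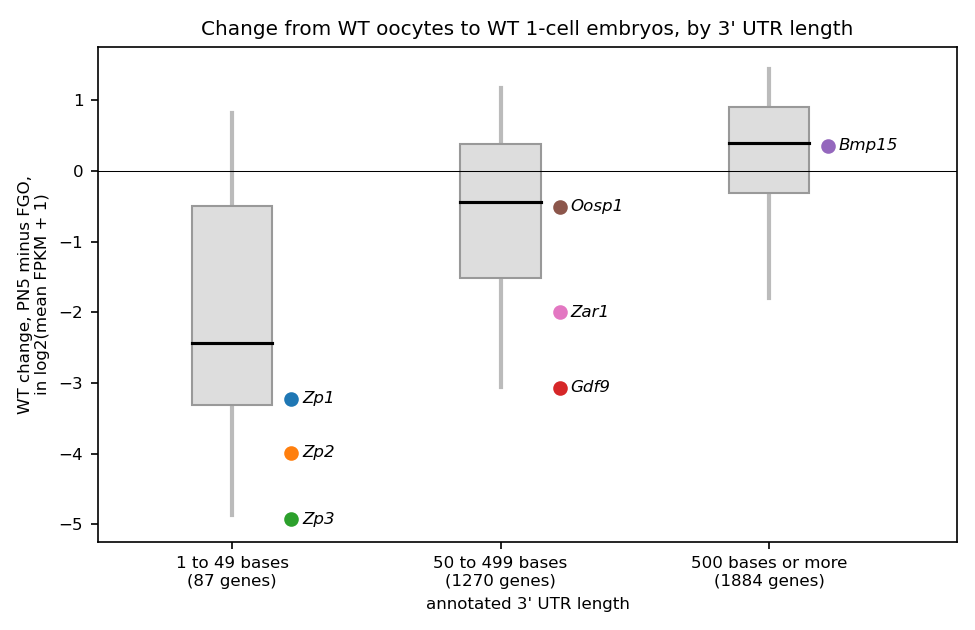
For 3 classes of annotated 3′ UTR length, boxes span the middle 50%, lines the 5th to 95th percentile and black bars the median of the WT change from FGO to PN5 in log2(mean FPKM + 1); coloured points are the named genes. Zp1, Zp2 and Zp3 lie in the class with the lowest median (−2.43), and Bmp15 lies near the median of the class of 500 bases or more.

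In 1-cell embryos none of the 9 genes passed the test between genotypes, and Gdf9 came closest. Gdf9 had 383 and 422 FPKM in mKO embryos, 360 and 404 FPKM in mHet, and 254 and 332 FPKM in WT. Both mKO and both mHet libraries lay above both WT libraries. The log2 change of mKO against WT was 0.47 (SE 0.20, limma adjusted p = 1.00), so it did not pass. Oosp1 had 2643 and 1898 FPKM in mKO, 1938 and 1934 FPKM in mHet, and 1861 and 2020 FPKM in WT, and Bmp15 had 1165 and 1840 FPKM in mKO, 1393 and 1700 FPKM in mHet, and 1491 and 1579 FPKM in WT. In both genes the mKO pair overlapped WT. The zona genes were close to each other in all genotypes, with Zp1 at 39.0 and 40.1 FPKM in mKO, 51.1 and 47.7 FPKM in mHet, and 37.3 and 47.2 FPKM in WT. Zp2 had 70.9 and 79.2 FPKM in mKO, 92.9 and 77.7 FPKM in mHet, and 90.05 and 72.2 FPKM in WT, and Zp3 had 55.6 and 76.4 FPKM in mKO, 55.7 and 89.0 FPKM in mHet, and 59.4 and 70.5 FPKM in WT. Zar1 had 119 and 154 FPKM in mKO, 114 and 129 FPKM in mHet, and 98.9 and 169 FPKM in WT. Of these 4 genes only Zp1 had a pair, that of mHet, wholly on 1 side of the WT pair. The mKO and mHet pairs of Zp3 lay on both sides of it. Figla and Nobox have no row in this table.

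Over the 7 genes tested at PN5, mKO against WT gave 0 calls at an adjusted p under 0.05 (0.0116% of all genes) and 0 at an unadjusted p under 0.05 (2.49%), and 1 gene, Gdf9, did not overlap and was higher (8.81% of all genes). The log2 changes ran between −0.11 and 0.47, with a median of 0.01 beside −0.06 for all genes. In mHet against WT there were 0 calls (background 0%), 0 unadjusted (0.837%), and Gdf9 and Zp1 did not overlap and were higher (11.4%). In mKO against mHet there were 0 calls (0.0116%) and 0 unadjusted (1.86%), and Zp1 did not overlap and was lower (16.5%).

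At the late 2-cell stage Zp2 and Oosp1 lay apart by genotype without passing the test. Zp2 had 14.4 and 12.1 FPKM in mKO embryos, 14.3 and 15.8 FPKM in mHet, and 19.9 and 20.9 FPKM in WT. Every mKO library lay below both WT libraries (log2 change −0.59, SE 0.24, limma adjusted p = 0.605). Oosp1 had 357 and 455 FPKM in mKO, 218 and 289 FPKM in mHet, and 283 and 281 FPKM in WT. Both mKO libraries lay above both WT libraries (log2 change 0.51, SE 0.30, limma adjusted p = 0.779) and above both mHet libraries (0.68, SE 0.30, adjusted p = 0.531; 12.8% of all genes did not overlap and were higher in mKO than in mHet). Bmp15 had 70.2 and 64.5 FPKM in mKO, 39.9 and 54.2 FPKM in mHet, and 68.8 and 75.5 FPKM in WT, with the mHet pair lowest (mHet against WT −0.62, SE 0.24, limma adjusted p = 1.00).

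The other genes overlapped between mKO and WT at L2C, apart from Zp1 at 8.58 and 8.70 FPKM in mKO, 7.25 and 8.41 FPKM in mHet, and 8.24 and 5.90 FPKM in WT. Zp3 had 37.4 and 59.6 FPKM in mKO, 42.5 and 81.3 FPKM in mHet, and 46.9 and 67.0 FPKM in WT, and Gdf9 had 22.3 and 51.3 FPKM in mKO, 22.1 and 28.6 FPKM in mHet, and 29.7 and 41.4 FPKM in WT. Nobox had 1.29 and 4.24 FPKM in mKO, 2.43 and 3.48 FPKM in mHet, and 2.74 and 3.60 FPKM in WT, and Zar1 had 2.01 and 8.07 FPKM in mKO, 3.91 and 3.41 FPKM in mHet, and 3.11 and 2.03 FPKM in WT. In all 4 genes 1 mKO library lay below the WT pair and the other lay above it or, for Zp3, between.

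Over the 8 genes tested at L2C, mKO against WT gave 0 calls (0.00969% of all genes) and 1 at an unadjusted p under 0.05, Zp2 (7.56%). Zp1 and Oosp1 did not overlap and were higher (13.7% of all genes), and Zp2 did not overlap and was lower (23.3%). The median log2 change was −0.07 for the 8 genes and −0.07 for all genes. In mHet against WT there were 0 calls (background 0%) and 1 unadjusted, Bmp15 (2.94%); Zp2, Gdf9 and Bmp15 did not overlap and were lower (14% of all genes), and Zar1 did not overlap and was higher (16.4%). In mKO against mHet there were 0 calls (0.0872%) and 1 unadjusted, Oosp1 (9.37%), and Zp1, Bmp15 and Oosp1 did not overlap and were higher (12.8%). The summed level of the 4 of 6 late 2-cell markers with a row was 125 to 174 FPKM in mKO, 49.3 to 53.6 FPKM in mHet and 62.5 to 79.0 FPKM in WT, with none of the 4 at 0; its part in these values was not tested.

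In 8-cell embryos Oosp1 was the gene furthest apart. It had 1.94, 1.60 and 2.48 FPKM in mKO embryos, 3.5 FPKM in the mHet library, and 11.7 and 6.54 FPKM in WT. All 3 mKO libraries lay below both WT libraries, whereas at L2C both mKO libraries lay above WT. The mean was 2.01 ± 0.44 FPKM in mKO and 9.13 ± 3.66 FPKM in WT (log2 change −1.71, SE 0.35), but over all genes it did not pass (limma adjusted p = 0.514). Over its alternatives the log2 change ran between −2.09 and −1.34 and the adjusted p between 0.00408 and 1.00. Written as a step, Oosp1 was 202-fold lower at 8C than at L2C in mKO embryos and 30.9-fold lower in WT.

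Zp3 had 23.0, 27.0 and 37.6 FPKM in mKO 8-cell embryos, 32.9 FPKM in mHet, and 38.5 and 47.1 FPKM in WT. The highest mKO library lay just under the lower WT library (log2 change −0.56, SE 0.34, limma adjusted p = 0.999). Gdf9 had 3.12, 4.10 and 2.29 FPKM in mKO, 3.10 FPKM in mHet, and 2.14 and 1.91 FPKM in WT, a small separation in the other direction (log2 change 0.44, SE 0.33). Zp2 and Bmp15 were between 0.585 and 3.26 FPKM in all libraries and overlapped. Zar1 was listed at 0 in both WT libraries and the mHet library and had 0.329, 0.774 and 0.717 FPKM in mKO, under the level needed to enter the test.

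Over the 5 genes tested at 8C, mKO against WT gave 0 calls (0.012% of all genes) and 1 at an unadjusted p under 0.05, Oosp1 (4.01%). Oosp1 and Zp3 did not overlap and were lower (9.15% of all genes), and Gdf9 did not overlap and was higher (7.46%). Their median log2 change was −0.49, beside −0.04 for all genes. The 6 oocyte markers summed to 23.0 to 30.2 FPKM in mKO and 29.2 to 34.9 FPKM in WT, and the 3 of 6 blastocyst markers with a row to 51.1 to 60.3 FPKM in mKO and 35.2 to 43.1 FPKM in WT, with none of these markers at 0 in all libraries of a group. The part of these levels in the Oosp1 value was not tested.

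**Figure D5:**
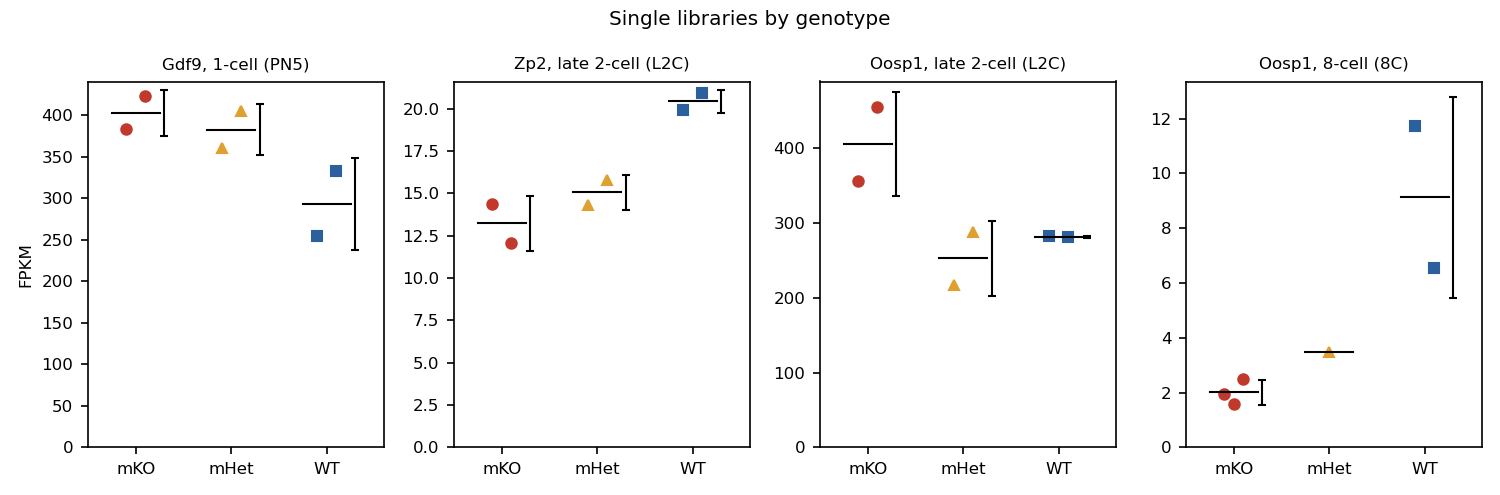
FPKM (from 0) of Gdf9 at PN5, Zp2 and Oosp1 at L2C and Oosp1 at 8C in single libraries of mKO, mHet and WT embryos; horizontal bars are means and whiskers the SD where a group has more than 1 library. Oosp1 in mKO lies above WT at L2C (357 and 455 FPKM) and below it at 8C (1.60 to 2.48 FPKM).

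From E3.5 on the 9 genes were at or close to 0. In 42 libraries 21 of 369 values reached 1 FPKM and 191 were listed at 0. Zp3 reached 1 FPKM in 10 of the 42 libraries, Oosp1 in 6, Gdf9 in 4 and Figla in 1, and the other genes in 0. Together the 9 genes made at most 0.00479% of the summed FPKM, against 0.148% to 0.262% at L2C and 0.00820% to 0.0165% at 8C. No gene of the 9 reached the level for testing in E6.5 epiblast or extraembryonic ectoderm.

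Low values of Oosp1 and Gdf9 remained in some E3.5 libraries. In the second E3.5 table Oosp1 had a lowest, median and highest value of 0, 0 and 0.418 FPKM in mKO, 0, 0.478 and 1.73 FPKM in mHet, and 0.346, 1.79 and 2.74 FPKM in WT. The 2 highest mKO libraries overlapped the 2 lowest WT libraries (log2 change −0.997, SE 0.33, limma adjusted p = 0.528). Gdf9 had 0, 0.185 and 0.410 FPKM in mKO, 0.488, 0.594 and 1.47 FPKM in mHet, and 0.268, 0.831 and 1.63 FPKM in WT (mKO against WT −0.63, SE 0.22, adjusted p = 0.607; mKO against mHet −0.67, SE 0.22, adjusted p = 0.686, without overlap, as in 1.27% of all genes that were lower). Both genes stayed under 1 FPKM in every mKO library of the second table, so they entered the test through mHet and WT alone. In that table Rn45s, a ribosomal RNA gene, took 9.19% to 69.5% of the summed FPKM in mKO, 13.1% to 35.1% in mHet and 11.3% to 41.8% in WT. Between 4940 and 8299 genes reached 1 FPKM in mKO, 7018 to 8404 in mHet and 6692 to 8236 in WT, and mKO replicate 4 was listed at 0 for all 9 genes. In the first E3.5 table Gdf9 was listed at 0 in both mKO libraries, with 0 and 0.156 FPKM in mHet and 0.764 and 0.681 FPKM in WT, and Oosp1 was listed at 0 in all 4 mKO and mHet libraries, with 0.743 and 0.834 FPKM in WT; both were under the level for testing. The 6 oocyte markers moved with them there, at 0.531 to 1.10 FPKM summed in mKO (H1foo, Mos and Bcl2l10 at 0), 0.703 to 1.44 FPKM in mHet (Npm2 and Mos at 0) and 4.41 to 5.30 FPKM in WT, and in the second table summed to 0 to 4.02 FPKM in mKO, 0.663 to 6.52 FPKM in mHet and 0.811 to 4.94 FPKM in WT. Their part was not tested.

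None of the 9 genes was called in the E3.5 and E4.25 tables. In the first E3.5 table only Zp3 was tested, with 0.712 and 1.19 FPKM in mKO, 0.263 and 2.07 FPKM in mHet, and 0.262 and 2.40 FPKM in WT, and gave 0 calls and 0 at an unadjusted p under 0.05 in mKO against WT (all genes 0.0407% and 5.48%), mHet against WT (0% and 7.75%) and mKO against mHet (0.0407% and 5.42%). In the second, with Zp3, Gdf9 and Oosp1 tested, mKO against WT gave 0 calls (0.0539%) and 2 unadjusted (5.76%), mHet against WT 0 (0%) and 0 unadjusted (1.62%), and mKO against mHet 0 (0.0108%) and 1 unadjusted, Gdf9 (6.22%). Gdf9 and Oosp1 entered there through mHet and WT alone, so their unadjusted p-values are no support for a lower level in mKO. At E4.25 Zp3 had 0.673, 0, 1.32 and 1.63 FPKM in mKO and 1.99, 0, 0.949 and 0.102 FPKM in WT, with a log2 change of 0.17 (SE 0.43) and 0 calls (14.6% of all genes) or unadjusted calls (35.5%). There the median of all genes was 0.74, and Rn45s took 11.7% to 68.6% of the summed FPKM.

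None of the genes listed as working with these 9 passed the test in KO against WT oocytes, in the fit without the sets of library numbers. Of 7 other zona and egg surface genes tested, 12 of the GDF9 and BMP15 pathway, 11 oocyte transcription factors, 18 oocyte genes of the FIGLA and NOBOX network and 14 ZAR1 partners and regulators of stored RNA, 0 were called and 1, Cd9, had an unadjusted p under 0.05. Their median log2 changes were 0.06, −0.16, −0.24, 0.11 and −0.17, beside −0.05 for all genes. Cd9, which encodes a tetraspanin of the egg surface needed for sperm fusion, was at 66.1 ± 23.2 FPKM in KO and 133 ± 63.8 FPKM in WT (log2 change −0.97, SE 0.47, limma adjusted p = 1), with overlap. The same lists gave 0 calls in mKO against WT at PN5, L2C and 8C. At an unadjusted p under 0.05 there were 1, 3 and 2 genes (2.49%, 7.56% and 4.01% of all genes). All of them were on the list headed oocyte transcription factors, which also holds Id1, Id2, Id3 and Gata4, genes not particular to the oocyte. Id3, an inhibitor of E-box binding factors, was at 2.64 ± 0.015 FPKM in mKO late 2-cell embryos and 0.256 ± 0.075 FPKM in WT (log2 change 1.54, SE 0.36, limma adjusted p = 0.379), and Id2 at 1.07 ± 0.26 FPKM in mKO 8-cell embryos and 3.16 ± 0.60 FPKM in WT (−1.01, SE 0.32, limma adjusted p = 0.999). Id3 was under 1 FPKM in the WT late 2-cell libraries, so it entered the test through mKO and mHet alone. At E4.25 1370 genes were called higher and 24 lower in mKO, 14.6% of all genes. Of the FIGLA and NOBOX network list only 5 of 18 genes were tested. Of these Dppa3, Khdc3, Pou5f1 and Ooep were higher in mKO (log2 changes 4.32, 3.82, 2.98 and 2.33). Dppa3, Khdc3 and Pou5f1 were not confined to the oocyte, with WT means of 3298, 83.7 and 55.6 FPKM at 8C. Ooep averaged 3.44 FPKM there. Ybx2 was higher (3.40) among 9 tested genes of the stored RNA list. Id1 was lower (−2.98) among 8 of the transcription factor list. The zona and GDF9 lists gave 0 calls among 3 and 11 genes. Pou5f1 averaged 0.714 FPKM in WT and 14.5 FPKM in mKO, so it could enter the test through mKO alone. Under median ratio scaling only Dppa3 of these 6 passed (3.51, limma adjusted p = 0.0425). Blastocyst markers there summed to 277 to 976 FPKM in mKO and 40.3 to 192 FPKM in WT, with none at 0, and their part was not tested.

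Among the candidate genes, defined with the processing below, those with the most similar course over the WT stages were Fbxw16 (r = 0.998), Nlrp14 (0.997), Fbxw19 (0.996), Mrap (0.995) and Cpeb1 (0.995), where r is Pearson's correlation over 9 WT stage means with the mean log2(FPKM + 1) of the 7 genes with rows in all tables. The median r over 3281 candidate genes was 0.446, and all genes share the same libraries and normalization. Among the 7 genes themselves Gdf9 followed the mean most closely (0.998) and Zp3 least (0.937). That mean contains each of the 7 genes, which raises their r, so these values cannot be set against those of the candidates. Cpeb1 encodes a protein that binds the cytoplasmic polyadenylation element, and averaged 132 FPKM in WT oocytes, 52.2 FPKM at PN5, 9.12 FPKM at L2C and 0.899 FPKM at 8C.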

How the data were processed

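RNA of oocytes and embryos was measured by Smart-seq2 on the DNBSEQ-T7 system, per the labels' protocols. The authors deposited 8 tables of FPKM per gene and library, per the file headers. The submitters' processing notes name HISAT2 2.2.1, HTSeq 0.6.0 and Trim Galore 0.4.2, and the builds mm9 and hg19. How FPKM were computed, on which annotation, whether strand was used and what each build was for is not stated in the labels or the file headers. Whole reads could not be recovered from the low values (the commonest ratio between low values covered at most 1.73% of them), so depth and counting error are unknown, and values at or below about 1 FPKM are the least precise.

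Libraries were grouped by the labels' titles and genotypes. Each table was fitted on its own with limma 3.58.1 in R 4.3.3 on log2(FPKM + 1), with trend and empirical Bayes moderation, all libraries of the table in 1 fit and genes with at least 1 FPKM in at least 2 libraries; Benjamini-Hochberg adjusted p under 0.05 was the threshold over all genes of the table, in 23 comparisons. A fold change on the log2(FPKM + 1) scale understates the change of low genes. The fits were tested on simulated data. Stage changes used ratios of group means, with 3′ ends and promoters read from GENCODE and RefSeq sequence of GRCm38. The members and gene lists were chosen with earlier results of these data known. All 9 genes were reported. Of each other list, called genes (at most 4) or the genes of smallest p were named. The 5 most similar genes were taken from candidates with at least 10 FPKM in WT oocytes and a row in all tables. Provisional symbols, such as Gm and Rik names, were left out of the candidates. That rule also covers AU022751, the symbol of Ezhip. Alternatives were a pseudocount of 0.1, no filter, median ratio scaling, fits of 2 groups alone, a replicate block, sets of library names, removal of Rn45s and leaving out each library. The same replicate numbers did not meet the rule for paired samples in any table, and the main fits hold no term for them. At PN5, L2C and in the first E3.5 table, libraries of the same number correlated positively for every genotype pair. At PN5 r was 0.515 for WT and mHet, 0.557 for WT and mKO and 0.552 for mHet and mKO. In extraembryonic ectoderm these correlations were negative. With 2 libraries per genotype, r between different numbers is the same value with its sign turned, so these signs cannot show pairing.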

Additional observations from a re-analysis of the deposited data

Results flagged for a closer look

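Of 11 groups of 4 to 10 libraries, each for a gene that entered the test, 2 held a library far from the others, and chance gives about 1 in 20. Both were Zp3 in the second E3.5 table. In mKO the highest library had 3.42 FPKM and the next 0.558 FPKM (n = 5; the gap was 0.837 of the range). In mHet the highest had 11.5 FPKM and the next 0.997 FPKM (n = 5; 0.923 of the range). Both libraries carry replicate number 7. The WT library of that number had 1.95 FPKM, the highest of the 5 WT libraries.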

How the results depend on the processing

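Over all alternatives of all comparisons the number of the 9 genes called stayed at 0 in 242 of 244 cases. These cases include epiblast and extraembryonic ectoderm, where none of the 9 genes reached the level for testing in the main fits. A count of 0 there says little about stability. In the first E3.5 table and at E4.25 only Zp3 was tested in the main fits. With the replicate block, 1 was called in 8-cell mKO against WT: Oosp1, at a log2 change of −1.83 (limma adjusted p = 0.00408), where all genes gave 123 calls against 1 without it. The numbers pair the samples by no stated rule, and the block changed no other call among the 9 genes. The other case was Oosp1 in oocyte KO against WT without WT replicate 1, a fit that leaves a lone WT library (log2 change 1.26). The log2 change of Oosp1 was −0.64 without WT replicate 2 and −0.04 without KO replicate 1. Calls over all genes were less stable, moving by over 1.5 times in 121 of 244 cases; at E4.25 they ran between 42 and 1939, against 1394. In extraembryonic ectoderm, crossing the numbers in the block gave 7, 0 and 1 calls over all genes in mKO against WT, mHet against WT and mKO against mHet. The set difference of Nobox in oocytes reversed to −0.754 under median ratio scaling. Median changes of the 7 genes between stages kept their direction. Leaving out libraries for single genes between stages was chosen after seeing the data; it turned Oosp1 from oocyte to PN5 in WT (log2 change 0.74) and Zp3 from PN5 to L2C in WT (0.044). For PN5 over FGO, median ratio scaling gave −3.31 in the KO line and −3.78 in WT, and leaving out 1 library gave −3.10 to −2.49 in the KO line and −3.27 to −2.39 in WT. For L2C over PN5 the scaling gave −2.22 in mKO and −2.52 in WT, and leaving out 1 library −2.70 to −2.49 in mKO and −2.84 to −2.72 in WT. For 8C over L2C a pseudocount of 0.1 gave −3.50 in mKO and −4.07 in WT, and leaving out 1 library −2.88 to −2.51 in mKO and −3.12 to −2.39 in WT. The cause was not tested. Values near or below 1 FPKM, which most of the 9 genes had from 8C on, limit what can be told there.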
